A study of Mus musculus with 5 samples.

Results

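The lipoxygenases and the enzymes of leukotriene synthesis were taken as 8 named genes, Pla2g4a, Alox5, Alox5ap, Lta4h, Ltc4s, Alox15, Alox12 and Pla2g7, listed by name. They are 8 of the 21154 gene symbols on the array, covered by 10 of its 55681 distinct probes, and 7 of them were among the 27979 genes tested, Alox12 being the exception. Of those 27979, 14680 carried a gene symbol, and the rest were probes without one, each counted as a gene. Shares of all genes given below include these unnamed probes. The study compared mouse peritoneal macrophages with and without c-Jun, a subunit of the transcription factor AP-1, on 1-colour Agilent arrays. Wild-type mice (arrays 5, 11 and 14) were littermates of c-JunΔLysM mice (arrays 1 and 9), all bred on a mixed 129/C57Bl6 background, aged 8 weeks and of either sex. In c-JunΔLysM mice Cre is made from the lysozyme M gene, Lyz2, which is active in macrophages, monocytes and neutrophils. Cells were washed from the peritoneum and plated overnight, and RNA was taken from those that stuck to the dish, so every group is an adherent lavage population and not a sorted one. Whether an array holds RNA of 1 mouse or of several was not stated, so p-values measure the spread between these arrays.

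Leukotrienes are lipid mediators made from arachidonic acid. A cytosolic phospholipase A2 frees arachidonic acid from membranes, 5-lipoxygenase and its activating protein turn it into leukotriene A4, and separate enzymes then convert leukotriene A4 into leukotriene B4, which draws in neutrophils, or leukotriene C4, the parent of the cysteinyl leukotrienes that contract smooth muscle and make vessels leak. Resident peritoneal macrophages are a classical source of these mediators, and in mice they also carry 12/15-lipoxygenase, which oxygenates arachidonic and linoleic acid to other products. All levels here are log2 signals relative to the 75th percentile of the same array, and each difference is the mean of the c-Jun-deleted arrays less that of the wild-type arrays.

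Because c-Jun acts through AP-1 sites, the promoters were searched for the AP-1 motif TGANTCA on both strands, from 250 bases before to 50 bases after the start of the gene, in RefSeq sequences of the GRCm38.p6 assembly. Sequences were at hand for 7 promoters of 6 members, and none of the 7 held the motif, against 7.81% of all 32851 promoters. No sequence was at hand for Alox15 or Alox5ap, so their promoters were not searched. Among the promoters of the wider pathway lists described further on, 4 of 74 held it (5.41%), those of Mgst2, Pla2g2e, Ptgds and Tbxas1. In that order these genes differed by 1.88, 0.07, -0.15 and -0.62, with no common direction. Pla2g2e and Ptgds were dim, each above background on 1 array per group. The part of the motif in these values was not tested. A missing motif says only that these letters do not occur in this window. The promoters below belong to the 5-lipoxygenase gene, to the leukotriene C4 synthase gene, whose groups did not overlap, and to Mgst2, a related synthase gene. In the Alox5 promoter (chr6:116461129-116461428, minus strand) capitals mark a GC box, GGGCGG, a motif searched after the sequences were seen. This motif lay in 3 of the 7 member promoters (Alox5, Alox12 and Pla2g7) and in 35.7% of all promoters. The Ltc4s promoter (chr11:50238483-50238782, minus strand) held neither motif. In the Mgst2 promoter (chr3:51660929-51661228, plus strand) capitals mark the AP-1 motif, which begins 52 bases before the start.
Alox5: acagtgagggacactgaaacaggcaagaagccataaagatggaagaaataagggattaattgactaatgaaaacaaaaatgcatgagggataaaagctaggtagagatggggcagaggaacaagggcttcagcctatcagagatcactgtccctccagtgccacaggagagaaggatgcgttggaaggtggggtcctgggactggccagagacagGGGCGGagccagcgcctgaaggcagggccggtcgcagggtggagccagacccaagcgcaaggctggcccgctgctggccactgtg
Ltc4s: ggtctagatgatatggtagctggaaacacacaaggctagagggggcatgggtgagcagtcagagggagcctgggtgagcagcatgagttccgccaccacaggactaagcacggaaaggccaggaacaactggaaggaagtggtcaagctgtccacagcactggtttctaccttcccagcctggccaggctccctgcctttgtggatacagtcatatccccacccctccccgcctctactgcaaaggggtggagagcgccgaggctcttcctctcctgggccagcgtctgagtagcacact
Mgst2: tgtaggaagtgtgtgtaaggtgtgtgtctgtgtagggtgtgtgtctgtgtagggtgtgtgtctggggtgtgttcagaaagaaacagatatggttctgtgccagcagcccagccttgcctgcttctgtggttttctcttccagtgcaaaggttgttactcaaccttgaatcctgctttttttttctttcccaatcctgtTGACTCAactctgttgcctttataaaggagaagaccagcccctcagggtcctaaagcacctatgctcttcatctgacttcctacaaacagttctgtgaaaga

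The arrays correlated with each other at r between 0.955 and 0.984, and 52.2% to 59.9% of probes were well above background on each. All 7 macrophage markers were well above background on every array, with a summed log2 level of 8.83 to 9.41 in the wild-type and 9.23 and 9.06 in the c-Jun-deleted arrays. The single markers did not move together. In the c-Jun-deleted arrays 3 were higher, 2 of them above the wild-type range (Cd68 and Itgam). The other 4 were lower, 3 of them below it (Csf1r, Mertk and Fcgr1). Over all 27979 genes tested, 3725 lay above and 5657 below that range. Jun measured 3.21, 3.75 and 3.17 in the wild-type and 2.76 and 2.71 in the c-Jun-deleted arrays, a difference of -0.64 (limma adjusted p = 0.391); it is not known here whether its probe falls in the deleted stretch. Wild-type 11 stood apart, with Xist, made from the inactive X chromosome of female cells, at -4.53 against -0.04 to 0.74 on the others, and the large peritoneal macrophage factor Gata6 at -1.07 against 1.29 to 2.08. On c-Jun-deleted 1, Lyz2 was at 4.46, against 8.52 to 9.18 on the other arrays. For the 7 tested members and for some of the other genes, values without wild-type 11 are given as well. On slide 1 were c-Jun-deleted 1 and wild-type 5, and the other 3 arrays shared slide 2.

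Across the members, Alox15 was higher and Ltc4s lower in both c-Jun-deleted arrays than in every wild-type array, and the other 5 tested genes overlapped between the groups. No member passed the test after Benjamini-Hochberg adjustment, and 0% of all genes did (limma). At an unadjusted p below 0.05, 1 of 7 members was called (Alox15), against 12.1% of all genes. The groups did not overlap for 2 of the 7 members (28.6%), against 33.5% of all genes, so the members' share was near the background. The median difference of the 7 members was -0.04, beside -0.09 over all genes, and 2 members were higher and 5 lower.

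**Figure D1:**
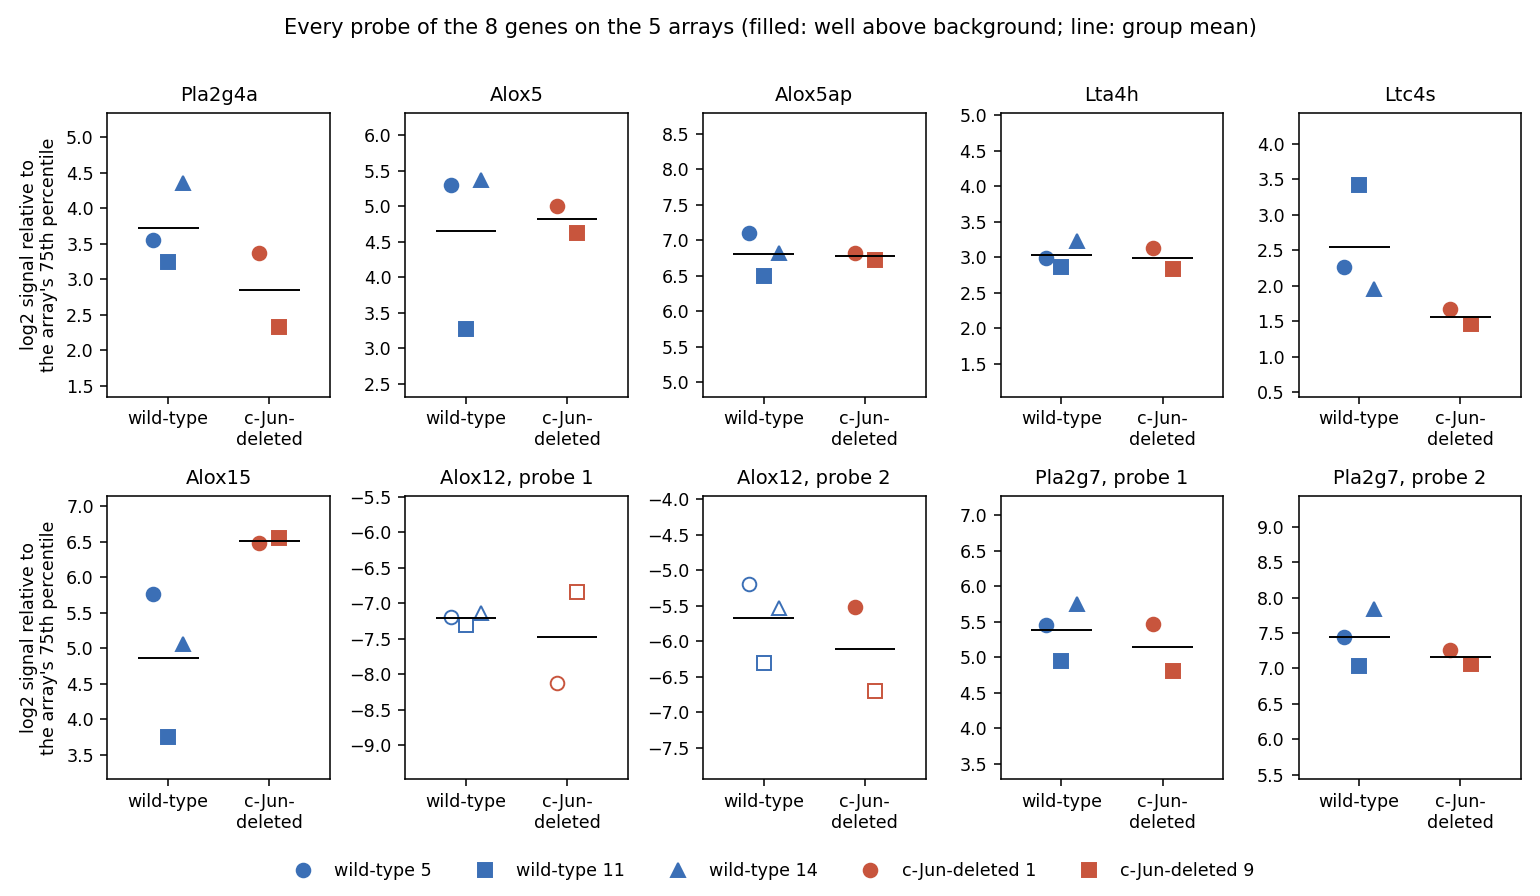
Log2 signal relative to the array's 75th percentile for each of the 10 probes on the 5 arrays (blue, wild-type; red, c-Jun-deleted; filled, well above background; line, group mean), with all panels spanning the same number of log2 units. Both c-Jun-deleted arrays lie above every wild-type array for Alox15 and below every one for Ltc4s; both Alox12 probes lie between -8.13 and -5.20, and the c-Jun-deleted 1 point of Pla2g7 probe 2 is a spot with an outlier flag.

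Pla2g4a encodes cytosolic phospholipase A2 alpha, which supplies arachidonic acid to both the lipoxygenase and the cyclooxygenase branch. It measured 3.55, 3.25 and 4.36 in wild-type 5, 11 and 14, and 3.36 and 2.33 in c-Jun-deleted 1 and 9. The groups overlapped, since c-Jun-deleted 1 lay between the lower wild-type arrays and only c-Jun-deleted 9 fell outside their range. The difference was -0.87 (SE 0.47, 95% interval -2.10 to 0.36, limma adjusted p = 0.496). It kept its sign under all 17 alternatives but rested largely on c-Jun-deleted 9: it was -0.36 without that array, -1.39 without c-Jun-deleted 1, -1.11 without wild-type 11, -0.19 within slide 1 and -1.47 within slide 2.

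Alox5 encodes 5-lipoxygenase, the enzyme that makes leukotriene A4. Its level was 5.30, 3.27 and 5.37 in the wild-type arrays and 5.00 and 4.63 in the c-Jun-deleted arrays. The c-Jun-deleted values fell between the low wild-type 11 and the other wild-type arrays. The difference was 0.17 (SE 0.72, 95% interval -1.71 to 2.05, limma adjusted p = 0.938), an interval that includes a change of 1 log2 unit in either direction. Without wild-type 11 it turned to -0.52 (SE 0.20, limma adjusted p = 0.325), with both c-Jun-deleted arrays then below both remaining wild-type arrays. Most of the spread of this gene lay within the wild-type group, whose SD was 1.19, and not between the groups.

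Alox5ap encodes the 5-lipoxygenase activating protein, FLAP, a membrane protein that hands arachidonic acid to 5-lipoxygenase. It measured 7.09, 6.49 and 6.82 in the wild-type and 6.82 and 6.72 in the c-Jun-deleted arrays. All 5 values lay within 0.60 of each other, and those of the c-Jun-deleted arrays lay inside the wild-type range. The difference was -0.03 (SE 0.22, 95% interval -0.60 to 0.54, limma adjusted p = 0.963), and its sign changed with the scaling of the arrays (0.12 with quantile normalization, 0.18 with median centring); without wild-type 11 it was -0.18.

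Lta4h encodes leukotriene A4 hydrolase, which makes leukotriene B4. Its level was 2.98, 2.86 and 3.23 in the wild-type and 3.13 and 2.84 in the c-Jun-deleted arrays, the narrowest range of the 7 members (0.39 log2 units). The difference was -0.04 (SE 0.19, 95% interval -0.53 to 0.46, limma adjusted p = 0.949), and its sign also changed with the scaling (0.17 with median centring); without wild-type 11 it was -0.12. For Alox5ap and Lta4h, the intervals left out a change of 1 log2 unit or more in either direction.

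Ltc4s encodes leukotriene C4 synthase, which joins glutathione to leukotriene A4 and so opens the cysteinyl branch. It measured 2.27, 3.42 and 1.95 in the wild-type arrays and 1.67 and 1.45 in the c-Jun-deleted arrays. Both c-Jun-deleted arrays lay below every wild-type array, with a gap of 0.28 log2 units between the nearest arrays, and wild-type 11 lay far above the rest. The difference was -0.98, or 1.97-fold lower (SE 0.48, 95% interval -2.22 to 0.26, limma adjusted p = 0.467). Without wild-type 11 it was -0.55 (limma adjusted p = 0.317), and within slides 1 and 2 it was -0.59 and -1.23. The sign was the same under all 17 alternatives. Thus the members for the B4 and the C4 branch had differences of -0.04 and -0.98, with intervals that overlapped; the difference between them was not tested.

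**Figure D2:**
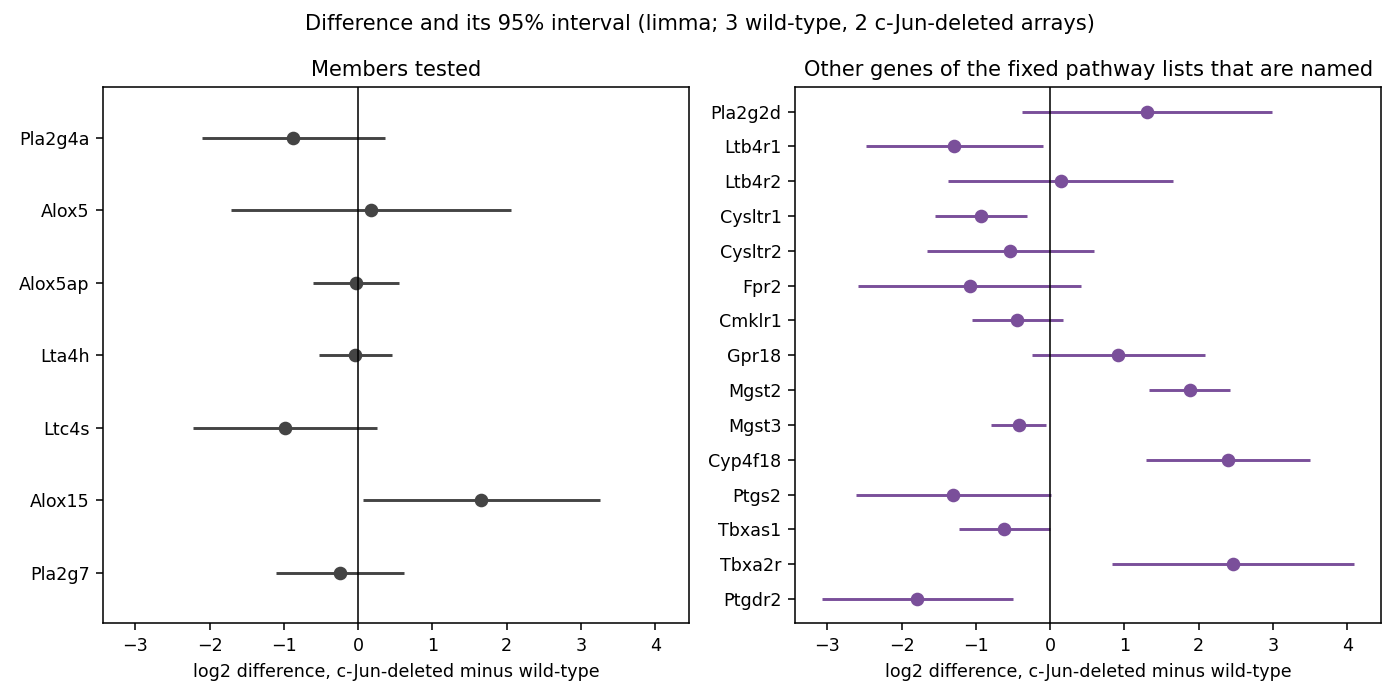
Log2 difference, c-Jun-deleted minus wild-type, with its 95% interval (limma) for the 7 tested members (left) and for the other pathway genes named in the text (right). The interval of Alox15, 0.06 to 3.25, is the only one among the members that leaves out 0, while those of Mgst2, Cyp4f18 and Tbxa2r lie above 0 and those of Cysltr1, Ltb4r1, Mgst3, Tbxas1 and Ptgdr2 below it; none passed adjustment over all genes.

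Alox15 encodes 12/15-lipoxygenase, a marker enzyme of resident peritoneal macrophages in mice. Its level was 5.76, 3.75 and 5.05 in the wild-type arrays, with a mean of 4.86 ± 1.02 (SD, n = 3), and 6.48 and 6.55 in the c-Jun-deleted arrays, with a mean of 6.51 ± 0.05 (SD, n = 2). The c-Jun-deleted arrays lay close together and above every wild-type array, and the wild-type arrays were spread over 2.01 log2 units. The difference was 1.66, or 3.15-fold higher (SE 0.61, 95% interval 0.06 to 3.25, limma adjusted p = 0.401). It was larger in size than that of 95.3% of all genes tested. Without wild-type 11, the lowest array, it was 1.11 (SE 0.29, limma adjusted p = 0.241). Within slide 1 it was 0.71 and within slide 2 it was 2.15, and it stayed positive under all 18 alternatives. Alox15 was the only member in the authors' deposited table of selected probes, which lists it at 6.47 for wild-type and 8.13 for the deleted cells, a difference of 1.66 on a log2 scale whose baseline for each probe is not known.

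Alox12 encodes platelet 12-lipoxygenase. Neither of its probes was well above background on enough arrays to be tested: 1 probe read -7.19, -7.31 and -7.14 in the wild-type and -8.13 and -6.84 in the c-Jun-deleted arrays, and was above background on 0 arrays. The other read -5.20, -6.31 and -5.53 in the wild-type and -5.52 and -6.70 in the c-Jun-deleted arrays, and was above background on c-Jun-deleted 1 alone. The signal of this gene was therefore at the floor of the array and no fold is given. Of the platelet markers, 7 of 9 were tested, 1 was higher and 6 were lower, all with overlapping groups, and their summed log2 level was 1.25 to 2.65 in the wild-type and 1.35 and 0.43 in the c-Jun-deleted arrays. Pf4 and Gp9 did not pass the filter, while Ppbp measured 0.11, 0.24 and 0.86 in the wild-type and 0.56 and -1.37 in the c-Jun-deleted arrays.

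Pla2g7 encodes the plasma form of platelet-activating factor acetylhydrolase, which breaks down platelet-activating factor and oxidized phospholipids and is secreted by macrophages. Its tested probe measured 5.45, 4.94 and 5.74 in the wild-type and 5.46 and 4.81 in the c-Jun-deleted arrays, with overlapping groups. The difference was -0.24 (SE 0.33, 95% interval -1.10 to 0.62, limma adjusted p = 0.779). Its brighter probe read 7.44, 7.03 and 7.84 in the wild-type and 7.26 and 7.06 in the c-Jun-deleted arrays; it was left out because its spot on c-Jun-deleted 1 carried an outlier flag, and it gave a difference of -0.28 with that spot kept (SE 0.28, limma adjusted p = 0.690). Both probes thus gave a small negative difference within the spread of the arrays. The difference of the tested probe was 0.08 without c-Jun-deleted 9 and -0.46 without wild-type 11.

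The members also differed in how they moved among the wild-type arrays. Relative to the wild-type mean, wild-type 11 was at -1.38 for Alox5 and -1.10 for Alox15 but at 0.87 for Ltc4s. On the c-Jun-deleted arrays, Alox15 was at 1.62 and 1.69 and Ltc4s at -0.87 and -1.09, while Alox5 was at 0.35 and -0.02. So Alox5 and Alox15 were both lowest on wild-type 11, yet on the c-Jun-deleted arrays Alox15 lay above the wild-type range and Alox5 inside it. Ltc4s lay below its wild-type range there.

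Markers of the cells that a peritoneal lavage can hold moved with some of these values. For large peritoneal macrophages, 11 of 13 tested markers were higher in the c-Jun-deleted arrays, 6 of them above the whole wild-type range. Over all 27979 genes tested, 10802 were higher and 3725 lay above the wild-type range. The mean of the 13 markers relative to the wild-type mean was 0.81, -0.85 and 0.05 in the wild-type and 0.82 and 1.12 in the c-Jun-deleted arrays. As with Alox15, the mean of this list was lowest on wild-type 11, but unlike Alox15 it was as high on wild-type 5 as on c-Jun-deleted 1. Single markers varied. Of those above the wild-type range, Vsig4 and Tgfb2 were lowest on wild-type 11, as Alox15 was. Icam2, Itga6, Cd93 and Bhlhe41 were lowest on wild-type 14. The summed log2 level of this list was 8.18 to 9.22 in the wild-type and 9.17 and 9.31 in the c-Jun-deleted arrays. In bulk RNA, fewer cells of a type and less RNA per cell cannot be told apart, and the part of these cells in the Alox15 value was not tested.

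The small peritoneal macrophage and dendritic cell markers were highest on wild-type 11, as Ltc4s was, at a summed log2 level of 7.67, against 5.74 and 5.58 on wild-type 5 and 14 and 5.99 and 6.38 on the c-Jun-deleted arrays. On wild-type 11 and the c-Jun-deleted arrays this sum rested mostly on H2-Aa, at 7.20, 5.38 and 5.97. The mean of the list relative to the wild-type mean was -0.08, 0.89 and -0.81 in wild-type 5, 11 and 14. It was -0.36 and 0.0016 in the c-Jun-deleted arrays. In this list 4 of 8 genes were higher and 4 lower in the c-Jun-deleted arrays. Mesothelial markers were also highest on wild-type 11, at a summed log2 level of 0.92 against -0.60 and -0.37 on the other wild-type arrays and -0.98 and -1.25 on the c-Jun-deleted arrays. All 4 tested were lower in the c-Jun-deleted arrays, 3 of them below the wild-type range, while Krt8 differed by only -0.03 and overlapped. Over all 27979 genes tested, 17177 were lower and 5657 lay below that range. The part of these cell types in the Ltc4s value was not tested.

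Mast cells and eosinophils are known for Alox5 and Ltc4s, and eosinophils, in mice, for Alox15. All 9 tested mast cell markers of 11 had a positive difference, but none lay outside the wild-type range on both c-Jun-deleted arrays; without Mrgprb1, left out after its values were seen because its level was 8.61 on c-Jun-deleted 9 and -1.99 to -0.14 on the others, the summed log2 level was 5.38 to 6.94 in the wild-type and 6.64 and 6.54 in the c-Jun-deleted arrays. The mast cell protease gene Cpa3 measured 5.35, 4.42 and 3.78 in the wild-type and 5.06 and 5.21 in the c-Jun-deleted arrays. Only 3 of 7 eosinophil markers were tested, and the granule protein genes Epx, Prg2 and Prg3, which define these cells, did not pass the filter; the summed log2 level of the 3 was 0.33 to 1.31 in the wild-type and 1.84 and 2.71 in the c-Jun-deleted arrays. Of these 3, only Il5ra lay above the wild-type range, with a difference of 1.91, while Ccr3 (0.16) and Ear6 (-0.30) overlapped. Neutrophil markers gave 4 of 9 tested genes higher, with a summed log2 level of 4.00 to 4.40 in the wild-type and 4.36 and 3.73 in the c-Jun-deleted arrays. B cell markers stood apart: all 11 were higher and above the wild-type range, with a median difference of 2.51 and a summed log2 level of 5.45 to 6.42 in the wild-type and 8.15 and 8.70 in the c-Jun-deleted arrays. Of the T and NK cell markers, 6 of 8 were higher and 2 lay above the wild-type range. Of the erythroid markers, 4 of 5 tested lay above it, all of them globin genes (Hba-a1, Hba-a2, Hbb-bt and Hbb-b1). The fifth, Slc4a1, lay below it, with a difference of -0.46, and Alas2 did not pass the filter. Among all 27979 genes, 3725 lay above the wild-type range. The part of these cell types in the members' values was not tested.

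**Figure D3:**
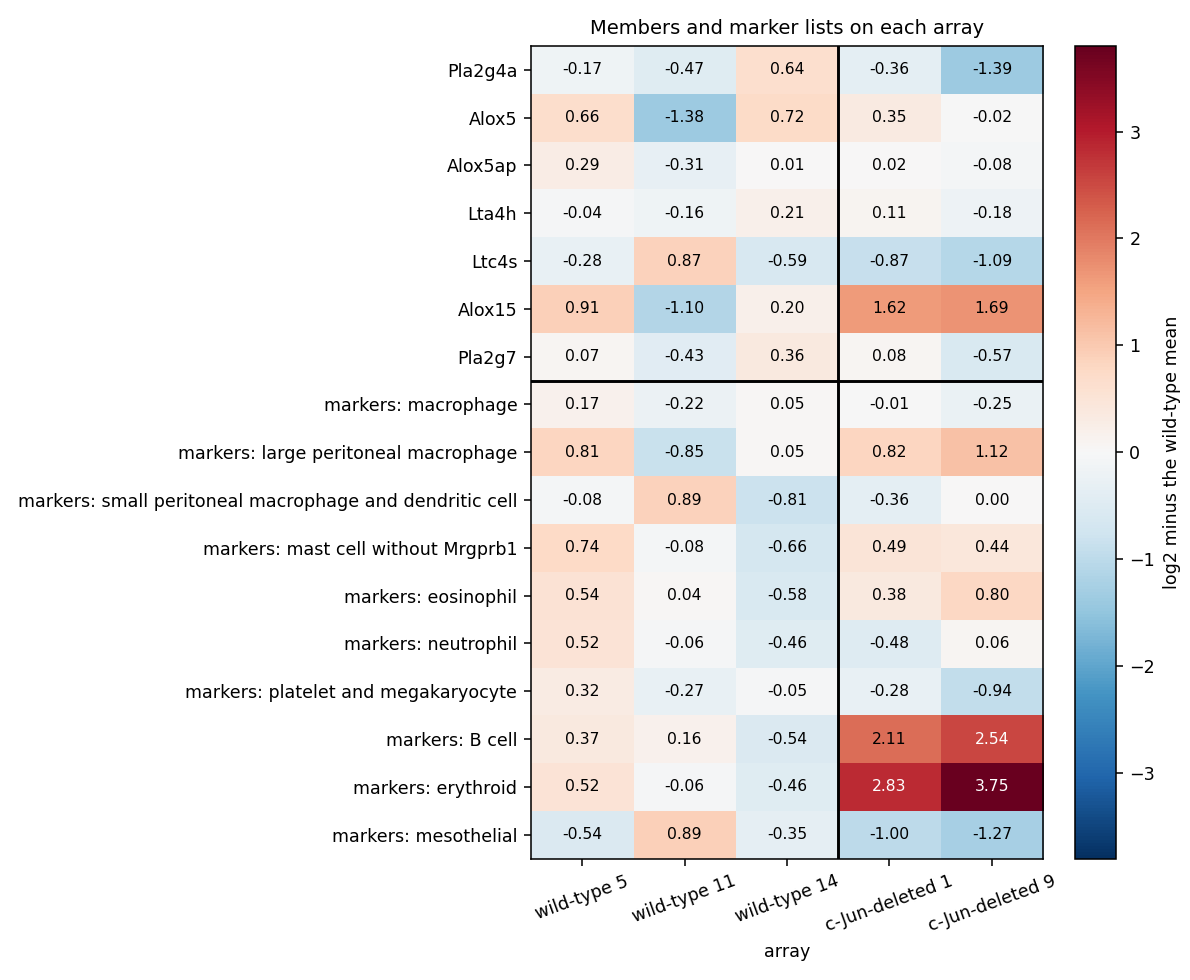
Log2 level minus the wild-type mean on each array, for the 7 tested members (above the line) and as the mean over each list of cell type markers (below it). Alox15 is high on both c-Jun-deleted arrays (1.62 and 1.69), as the means of the B cell and erythroid lists are, the erythroid mean through its globin genes. Alox5, Alox15 and the large peritoneal macrophage list are all low on wild-type 11.

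The receptors through which these mediators act were listed as 8 genes, and 7 were tested. Of these, 2 were higher and 5 lower in the c-Jun-deleted arrays, with a median difference of -0.53; 2 of 7 did not overlap, both lower, beside the 33.5% of all genes. Cysltr1, the main receptor for leukotriene D4, measured 4.44, 4.07 and 4.56 in the wild-type and 3.64 and 3.21 in the c-Jun-deleted arrays. The difference was -0.93, or 1.91-fold lower (SE 0.24, limma adjusted p = 0.290), with the groups apart and the same sign under all 17 alternatives (-1.15 to -0.71). Ltb4r1, the high-affinity receptor for leukotriene B4, measured 1.27, 2.44 and 1.52 in the wild-type and 0.87 and 0.03 in the c-Jun-deleted arrays. Its difference was -1.29, or 2.45-fold lower (SE 0.46, limma adjusted p = 0.387), and within slides 1 and 2 it was -0.40 and -1.95. Without wild-type 11 it was -0.94.

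The remaining receptors overlapped between the groups. Fpr2, a receptor for formylated peptides and lipoxin A4, measured 5.35, 6.05 and 6.47 in the wild-type and 5.65 and 4.11 in the c-Jun-deleted arrays, a difference of -1.08 that was 0.30 within slide 1, -0.31 when c-Jun-deleted 9 was left out and -1.85 when c-Jun-deleted 1 was. Cysltr2, the other cysteinyl leukotriene receptor, differed by -0.53, by -0.21 without wild-type 11 and by -0.90 without wild-type 14. Cmklr1, a receptor for chemerin and resolvin E1, differed by -0.44, by -0.27 without c-Jun-deleted 9, by -0.29 without wild-type 14 and by -0.16 with normexp background correction. Gpr18 differed by 0.92 (95% interval -0.25 to 2.08), by 0.57 without c-Jun-deleted 9 and by 1.27 without wild-type 11. Ltb4r2, the low-affinity leukotriene B4 receptor, was above background on 2 of 3 wild-type and 1 of 2 c-Jun-deleted arrays, and its difference of 0.14 changed sign with the background correction (-0.17 with normexp); without wild-type 11 it was 0.26. Oxgr1 did not pass the filter.

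Of the genes for conversion, breakdown and export of leukotrienes, 9 of 11 were tested; 3 were higher and 6 lower, and 4 of the 9 (44.4%) did not overlap, 2 in each direction, beside 33.5% of all genes. Mgst2 encodes a microsomal glutathione transferase that can also make leukotriene C4 outside blood cells. It measured 1.06, 1.31 and 0.89 in the wild-type and 2.79 and 3.14 in the c-Jun-deleted arrays. The difference was 1.88, or 3.67-fold higher (SE 0.21, limma adjusted p = 0.213), and it was opposite in sign to that of Ltc4s. It lay between 1.70 and 2.09 under the 18 alternatives and passed adjustment under 1 of them, median centring (limma adjusted p = 0.0458). Mgst3, a further member of that transferase family, was lower by a small amount, with a difference of -0.42 (SE 0.14, limma adjusted p = 0.371), or -0.21 with median centring.

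Cyp4f18 encodes a cytochrome P450 that inactivates leukotriene B4 by oxidation. It measured 3.45, 2.78 and 2.21 in the wild-type and 4.91 and 5.50 in the c-Jun-deleted arrays. The difference was 2.39, or 5.24-fold higher (SE 0.42, limma adjusted p = 0.228), with a range of 1.46 to 3.00 under the 18 alternatives. The authors' deposited table holds the same differences for both genes, 1.88 for Mgst2 and 2.39 for Cyp4f18. The B cell markers, at a median difference of 2.51, moved with both, and their part in these values was not tested.

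Outside the receptor, conversion and cyclooxygenase lists, no listed gene passed an unadjusted p below 0.05 (limma). Of the other lipoxygenases, 3 of 4 were tested (Alox12b, Alox12e and Aloxe3), with 2 higher, 1 lower and all overlapping. Of the other phospholipases A2, 10 of 17 were tested, with 4 higher and 6 lower; 3 lay above the wild-type range, of which Pla2g2d measured -1.96, -2.45 and -4.01 in the wild-type and -1.57 and -1.44 in the c-Jun-deleted arrays, a difference of 1.31 (SE 0.64, limma adjusted p = 0.473) that was 0.70 without wild-type 14, 0.74 with normexp and 0.39 within slide 1. All 7 genes of platelet-activating factor metabolism were tested, with 3 higher and 4 lower; 1 lay above and 2 below the wild-type range. Of the 5 partners of 5-lipoxygenase and peroxide-reducing enzymes, 1 was higher and 4 lower, with a median of -0.32. Over these 6 lists, 15 of 41 tested genes were higher and 26 lower, 34.1% did not overlap between the groups, beside 33.5% of all genes, and 5 passed an unadjusted p below 0.05, beside 12.1% of all genes, so both shares were near the background, with a median of -0.12 beside -0.09 for all genes.

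The cyclooxygenase branch, which draws on the same arachidonic acid, gave 9 higher and 8 lower among 17 tested genes of 19, with a median of 0.02. Ptgs2, the inducible cyclooxygenase, differed by -1.30 (SE 0.50, limma adjusted p = 0.413), by -0.72 without c-Jun-deleted 9 and by -0.44 within slide 1. Tbxas1, thromboxane synthase, differed by -0.62 (limma adjusted p = 0.411), by -0.46 without wild-type 11 and by -0.19 within slide 1. The thromboxane receptor gene Tbxa2r measured -2.62, -1.57 and -3.47 in the wild-type and -0.52 and 0.34 in the c-Jun-deleted arrays, a difference of 2.46 (SE 0.63, limma adjusted p = 0.290). Ptgdr2, a prostaglandin D2 receptor, was detected above background on neither array of deleted cells and, among the wild-type arrays, on 2 of 3. The dim side was set, per array, at the dimmest signal that still counted as well above background or at the probe's own if higher. The mean of the deleted cells was then 3.37-fold lower, an estimate for the scaling used here and all 5 arrays and not a lower limit. The fitted difference was -1.79 (95% interval -3.07 to -0.50, limma adjusted p = 0.305), -1.42 without wild-type 11 and -0.35 with normexp.

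**Figure D4:**
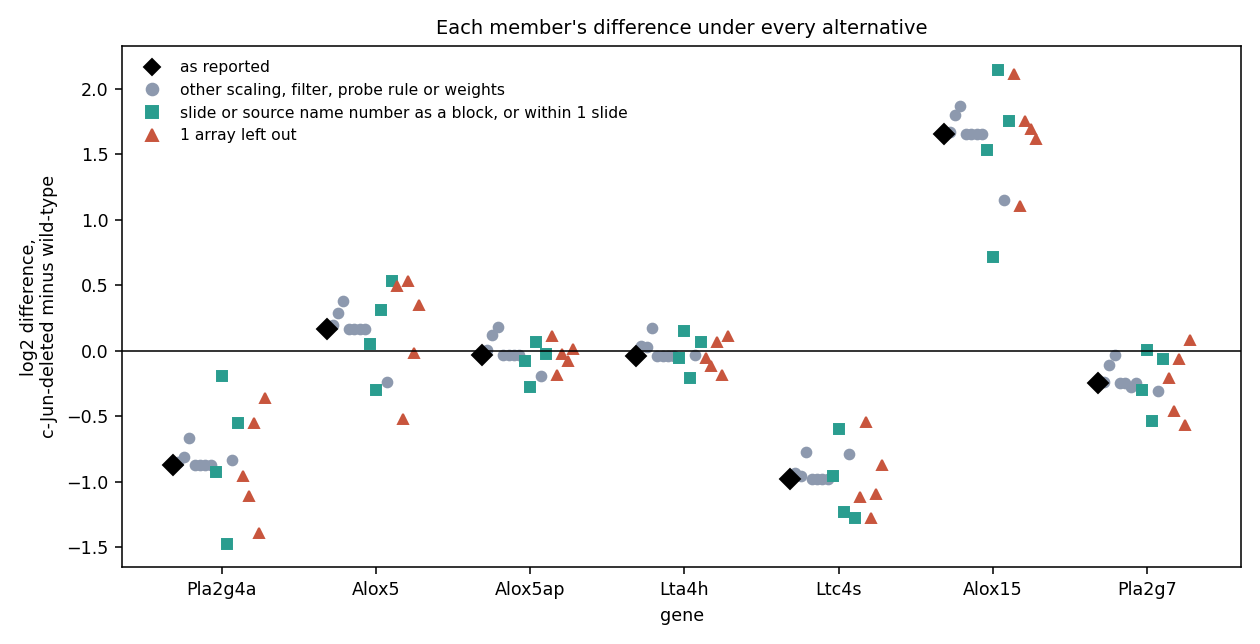
Log2 difference, c-Jun-deleted minus wild-type, of each tested member as reported (black) and under each alternative: scaling, filter, probe rule or weights (grey), slide or source name number (green) and 1 array left out (red). Alox15 stays above 0 (0.71 to 2.15), Ltc4s (-1.28 to -0.55) and Pla2g4a (-1.47 to -0.19) stay below it, and Alox5, Alox5ap, Lta4h and Pla2g7 fall on both sides.

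The genes with patterns nearest to a member over the 5 arrays were found by the root mean square distance between log2 values, each less its own mean, for members that spanned at least 1 log2 unit. Only genes with a symbol were searched. Nearest to Alox5 were Epha4 (distance 0.093), Macrod2 (0.0989) and Tnfrsf23 (0.110), all low on wild-type 11, and 62 genes lay within 0.25. Nearest to Alox15 were Hey1 (0.253), A930024E05Rik (0.257) and Ppm1e (0.265), and 0 genes lay within 0.25. Nearest to Ltc4s were Trerf1 (0.0297), Syt10 (0.111) and Upk1b (0.123), all high on wild-type 11, with 70 genes within 0.25. For Pla2g4a these were Rnf149 (0.0823), Hk2 (0.0880) and Ms4a6d (0.0936), with 111 genes within 0.25. Among so many genes and 5 arrays, near patterns are common for 3 of these 4 members. For Alox15 the nearest gene, at 0.253, lay just outside the distance counted. That distance was the same for every member, while Alox15 spanned the most (2.80 log2 units), so its count cannot be set against theirs.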

How the data were processed

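Each array's scanner file was read with Feature Extraction 11.5.1.1, per the file headers, which give spot intensity after the authors' scanner software had subtracted the background, and flags, scored as 0 or 1, for outliers and for spots well above background. Per the labels' protocols, Cy3-labelled cRNA was made from 50 ng of total RNA. The array design was built on mm9. Here log2 of the processed intensity was set relative to each array's 75th percentile over the 59305 non-control spots; controls and outlier-flagged spots were dropped. Of 55681 probes, 32864 were well above background on at least 2 arrays and 256 of these had a flagged spot. A gene was represented by its brightest remaining probe, and 28026 probes were named through RefSeq transcripts (GRCm38.p6 table). A probe without a symbol was counted as a gene of its own. Testing used limma 3.58.1 under R 4.3.3 (lmFit, eBayes, 2-sided), with Benjamini-Hochberg adjustment over all 27979 genes and a threshold of 0.05; the fit was tested on simulated data. With 3 and 2 arrays, the number of arrays limits the precision.

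The authors also deposited a table of 1709 selected probes with 1 log2 value per group. For 1692 probes, its 2 columns differed by the same amount as the groups here, to within 0.001 (largest gap 0.167), and its column medians were 0.54 for wild-type and 1.19 for the deleted cells. Scale and direction are therefore known, but not the baseline of each probe. Its header names the deleted cells after Mx and the labels name LysM, and 1 array that the header lists is not used here.

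The members, the pathway lists (71 genes) and the marker lists (97 genes) were chosen with earlier results of these data known. Pathway genes were named where the unadjusted p was below 0.05 or the groups did not overlap with a log2 difference of at least 1; receptors that were tested were named in any case. Alternatives were normexp background correction (offset 50, on median intensities), quantile normalization, median centring, no filter or a filter on all arrays, flags kept, the mean of all probes, slide as a block, each slide alone, array weights and each array left out. The source name number as a block was added after seeing the data.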

Additional observations from a re-analysis of the deposited data

How the results depend on the processing

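With 3 and 2 arrays, no member's difference could be told from the spread after adjustment under any alternative run (limma adjusted p 0.241 to 0.924 for Alox15). Alox15 stayed positive, and Ltc4s and Pla2g4a negative, under every alternative. The titles give the groups no shared numbers, but the source names number arrays 1 and 2 in both (wild-type 5 with c-Jun-deleted 1, wild-type 11 with c-Jun-deleted 9). Deviations from the group means correlated at -0.069 and 0.187 within these pairs. The deviations of the 2 c-Jun-deleted arrays mirror each other, so these values cannot show whether the pairs share more than a number. With that number as a replicate block, chosen after seeing the data, wild-type 14 has no partner and adds nothing; 3394 genes passed an unadjusted p below 0.05 and 0 passed adjustment (limma), Lta4h turned to 0.065 and Ltb4r2 to -0.38, and the medians of the cyclooxygenase list and the 6 leukotriene lists were -0.085 and -0.066. The median of all genes was -0.09 as reported, 0.12 with median centring, -0.01 with quantile normalization and -0.20 without the filter on dim probes, so a difference within about that shift has no settled sign. Genes at an unadjusted p below 0.05 were 46.3% higher as reported, 62.0% with quantile normalization and 79.0% with median centring. Genes passing adjustment numbered 0 as reported (3395 at an unadjusted p below 0.05), 178 with median centring and 1 with array weights; the cause was not tested. Unadjusted calls fell to 1838 within slide 2, and ranged from 1700 (without c-Jun-deleted 9) to 4500 with 1 array left out.

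Within slide 1, with 1 array per group and no test, the differences were -0.30 for Alox5, 0.71 for Alox15, 0.15 for Lta4h, -0.19 for Pla2g4a, 0.0097 for Pla2g7, -0.82 for Ltb4r2 and 0.30 for Fpr2; within slide 2 Alox5ap was 0.068. Array weights turned Alox5 to -0.24 and Ltb4r2 to -0.22. Normexp turned Alox5ap to 0.0028, Lta4h to 0.037 and Ltb4r2 to -0.17. Quantile normalization turned Alox5ap to 0.12 and Lta4h to 0.027; median centring turned them to 0.18 and 0.17. With 1 array left out, the range was -0.52 (without wild-type 11) to 0.53 for Alox5, -0.18 to 0.12 for Alox5ap, -0.18 to 0.11 for Lta4h, -0.57 to 0.082 for Pla2g7, -1.39 to -0.36 for Pla2g4a, -1.28 to -0.55 for Ltc4s, 1.11 to 2.11 for Alox15 and -0.38 (without wild-type 14) to 0.55 for Ltb4r2; the cause was not tested. A lone array left in a group was assumed to vary like the other group.

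The median of the cyclooxygenase list was -0.081 with normexp, 0.23 with median centring, -0.086 without the filter, -0.13 within slide 1 and -0.13 to 0.028 with 1 array left out. The median of the 6 leukotriene lists was -0.043 with quantile normalization, 0.088 with median centring, -0.19 without the filter, -0.13 with the filter on all arrays, -0.17 with slide as a block, -0.059 within slide 1, -0.28 within slide 2, -0.15 with array weights and -0.26 (without c-Jun-deleted 1) to 0.0036 (without c-Jun-deleted 9) with 1 array left out.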
